A study of Mus musculus with 10 samples.

Results

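The sarcomere and Z-disc genes are 33 genes of the contractile apparatus of ventricular muscle of the mouse, chosen by name and sorted into 5 compartments by where their proteins lie. The list holds 3 genes of the thick filament, 7 of the thin filament, 4 of titin and the M-band, 13 of the Z-disc, and 6 of the costamere, the intercalated disc and the desmin network. Of these 33 genes, 32 were found among the 15341 genes of the count table, and all 32 passed the filter on low counts; Xirp1 was not analysed here. RNA was sequenced from the hearts of male mice in 2 groups of 5. S1Pless mice carried a floxed allele over a null allele of both Sphk1 and Sphk2 together with the Mx1Cre transgene (Sphk1f/-:Sphk2f/-:Mx1Cre+), and control mice carried the same Sphk1 and Sphk2 alleles without the transgene (Sphk1f/-:Sphk2f/-:Mx1Cre-). Sphk1 and Sphk2 encode the kinases that make sphingosine-1-phosphate, and the comparison asks what differs in the heart when this lipid is missing from plasma. Both groups were therefore heterozygous for the null alleles. The Mx1 promoter is inducible by interferon and is active in blood-forming cells and in other tissues, so the deletion may not be limited to the cells that supply plasma. Neither the age of the mice nor any induction of the transgene is given in the sources used here.

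The sarcomere is the contractile unit of striated muscle. Thick filaments of myosin slide along thin filaments of actin, whose troponin and tropomyosin make the movement depend on calcium. Titin spans from the Z-disc, where thin filaments of neighbouring sarcomeres are crosslinked, to the M-band, where thick filaments are tied together, and costameres, intercalated discs and desmin carry the force to the membrane and to the next cell. Mutations in many of these genes are a known cause of human cardiomyopathy, and the transcripts of the filament proteins are among the most abundant of the heart.

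Serum response factor, which binds the CArG box, and the MEF2 proteins are known regulators of many muscle genes, and the promoters of the list were searched for their motifs. RefSeq (GRCm38.p6) gave a promoter for 28 of the members, and the 250 bases before the transcription start were read on both strands. A CArG box was present in 8 of 28 member genes (28.6%), against 439 of 27025 genes in all (1.62%). The 8 genes were Actc1, Dmd, Fhl2, Ldb3, Myl3, Myom1, Nebl and Vcl. A MEF2 site was present in 6 of 28 member genes (21.4%), against 923 of 27025 genes (3.42%). The letters GATAA were present in 35.7% of member genes and 25.5% of all genes, and TATAAA in 7 of 28 member genes, against 14.3% of all genes. MEF2 sites and TATAAA can share bases. A match describes the letters of the window and not binding. For each compartment, the promoter with a CArG box whose gene had the smallest p-value in the comparison below is shown 5′ to 3′ on the strand of its gene, with CArG boxes and MEF2 sites in capitals.
Myl3: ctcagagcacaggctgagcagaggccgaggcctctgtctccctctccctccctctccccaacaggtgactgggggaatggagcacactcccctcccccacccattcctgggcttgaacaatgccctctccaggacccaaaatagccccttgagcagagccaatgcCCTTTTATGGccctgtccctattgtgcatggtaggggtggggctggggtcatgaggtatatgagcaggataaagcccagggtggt
Actc1: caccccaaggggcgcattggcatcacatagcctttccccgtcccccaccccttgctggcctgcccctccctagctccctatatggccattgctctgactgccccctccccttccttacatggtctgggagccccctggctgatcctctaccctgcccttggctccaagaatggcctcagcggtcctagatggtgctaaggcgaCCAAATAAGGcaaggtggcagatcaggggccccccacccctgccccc
Myom1: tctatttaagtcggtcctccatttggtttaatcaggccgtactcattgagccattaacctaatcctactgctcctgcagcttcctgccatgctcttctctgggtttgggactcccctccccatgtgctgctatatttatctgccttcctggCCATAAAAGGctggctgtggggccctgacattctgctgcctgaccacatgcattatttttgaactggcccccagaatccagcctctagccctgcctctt
Fhl2: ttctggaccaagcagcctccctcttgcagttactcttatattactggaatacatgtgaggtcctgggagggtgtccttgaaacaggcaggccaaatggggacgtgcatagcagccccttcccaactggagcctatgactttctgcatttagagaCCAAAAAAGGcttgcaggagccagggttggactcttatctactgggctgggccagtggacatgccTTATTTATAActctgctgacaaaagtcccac
Dmd: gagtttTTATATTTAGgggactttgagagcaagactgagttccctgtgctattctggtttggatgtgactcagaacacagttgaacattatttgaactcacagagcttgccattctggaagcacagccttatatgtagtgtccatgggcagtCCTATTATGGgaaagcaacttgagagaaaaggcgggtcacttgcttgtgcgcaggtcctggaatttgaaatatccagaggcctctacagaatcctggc
These windows lie at chr9:110763428-110763677 on the plus strand (Myl3), chr2:114052876-114053125 on the minus strand (Actc1), chr17:71019307-71019556 on the plus strand (Myom1), chr1:43196762-43197011 on the minus strand (Fhl2) and chrX:82948620-82948869 on the plus strand (Dmd). In the windows shown, the CArG box began 47 bases before the start in Actc1, 85 in Myl3, 96 in Fhl2, 98 in Dmd and 99 in Myom1. The capitals nearest to the start of Fhl2, at 31 bases, and farthest from that of Dmd, at 244 bases, are MEF2 sites. Fhl2 and Dmd each have a further promoter that is not shown. That of Fhl2 holds a CArG box (CCTTATATGG) 31 bases before its own start, and that of Dmd holds neither motif.

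Library totals ran between 16354071 and 20832566 counts in the S1Pless hearts and between 17204491 and 20202283 in the control hearts, so 1 count was worth 0.0451 to 0.0658 CPM, the count scaled to library size. The scaling factor (TMM) averaged 1.05 ± 0.0328 in S1Pless hearts and 0.955 ± 0.0478 in control hearts (SD, n = 5 each; exact permutation test, two-sided, p = 0.0159, or 0.0794 after adjustment for 5 measures of the libraries). The mitochondrial share of counts averaged 24.7 ± 2.18% in S1Pless hearts and 26.9 ± 3.85% in control hearts (exact permutation p = 0.310). Sphk1 had 0.723 ± 0.213 CPM in S1Pless hearts and 1.21 ± 0.357 CPM in control hearts (adjusted p = 0.168). Sphk2 had 16.8 ± 1.94 CPM in S1Pless hearts and 20.2 ± 2.30 CPM in control hearts (adjusted p = 0.180), so neither targeted gene passed the test in whole heart tissue. Of the markers of other muscle, Myh4 of fast skeletal muscle had no count in any heart. Skeletal muscle transcripts were not absent: the 3 markers that passed the filter (Tnnt3, Tnni2 and Mylpf) had low summed levels. These were 3.32 ± 0.803 CPM in S1Pless hearts and 3.40 ± 0.839 CPM in control hearts. The atrial genes Myl7 and Sln had 167 and 74 counts in S1Pless heart 3 and at most 3 in each other heart. Without S1Pless heart 3, 0 members were called and their median log2 fold change, given below, was -0.15.

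None of the 32 members passed the test between S1Pless and control hearts. The estimated log2 fold changes, S1Pless over control, ran between -0.29 for Fhl2 and 0.18 for Myot, and their intervals, given below, reached further. The median was -0.17, beside -0.01 over all 12992 genes tested. In the quasi-likelihood test of edgeR, with p-values adjusted by Benjamini and Hochberg's method over all genes tested, 0 of 32 members had an adjusted p below 0.05, against 3.72% of all genes tested (3.4% higher and 0.316% lower in S1Pless hearts), and the lowest adjusted p among members was 0.191. At an unadjusted p below 0.05 the same fit gave 2 members, Synpo2l and Tmod1, both lower, where 19.9% of all genes passed (13% higher and 6.82% lower). DESeq2 gave 0 members at the adjusted threshold, which 7.91% of all genes passed, and 7, all lower, at the unadjusted one, which 2782 of 12992 genes passed (1186 of them lower). Limma-voom with quality weights gave 0 members at the adjusted threshold, against 4.42% of all genes, and 2 at the unadjusted one, which 2847 of 12992 genes passed. In all 32 members the 5 S1Pless and the 5 control values overlapped. Over all genes, 6.35% had groups that did not overlap (S1Pless hearts above in 4.53% and below in 1.82%). At shares this low, few of 32 genes would be expected to separate, so full overlap does not set the members apart. The estimate was below 0 in 31 of 32 members, against 52.6% of all genes. This direction depended on the scaling of the libraries, described further on.

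With TMM factors, the intervals bound the size of each gene's difference. They hold for single genes and not for the list at once. They also leave out the choice of scaling, which moved the members as described further on. The 95% interval held 0 in 30 of 32 members, and in 25 it lay within 1.5-fold in either direction. In 7 members it reached a 1.5-fold fall, and in 0 a 1.5-fold rise. In whole tissue, fewer cardiomyocytes and less RNA per cardiomyocyte cannot be told apart.

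**Figure D1:**
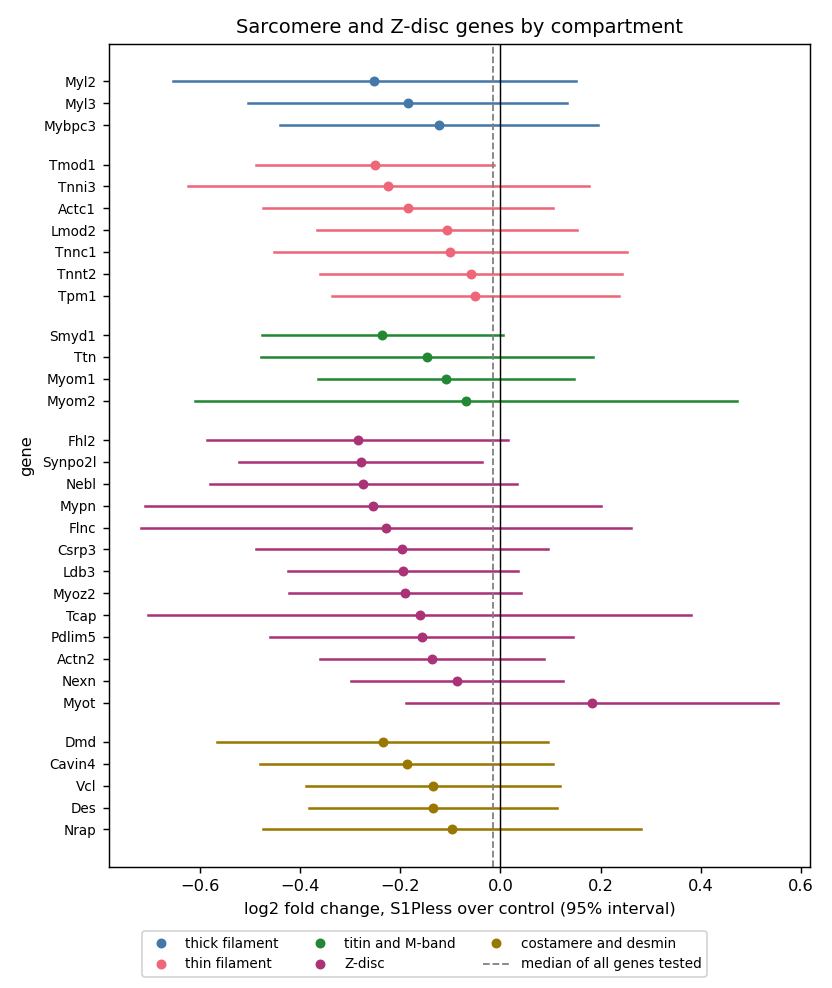
Log2 fold change of each member, S1Pless over control (horizontal axis), with its 95% interval from edgeR's fit, for the 32 genes grouped by compartment down the page; the dashed line is the median of all genes tested, -0.01. Of the 32 points, 31 lie left of 0 and Myot, at 0.18, lies right of it, and 30 intervals hold 0.

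The 3 thick filament genes did not pass the test and had a median log2 fold change of -0.19. Myl2, the regulatory light chain of ventricular myosin, had 8247, 8172, 6597, 6044 and 5254 CPM in the S1Pless hearts, against 11193, 7005, 10025, 6775 and 5864 CPM in the control hearts. The highest values belonged to control hearts 1 and 3, and the other 3 control hearts lay among the S1Pless hearts. The log2 fold change was -0.25 ± 0.19 (SE; adjusted p = 0.486). Myl3, the essential light chain, had 4706, 4669, 3610, 3822 and 3358 CPM in the S1Pless hearts, against 5097, 3993, 5970, 4082 and 3792 CPM in the control hearts. Control hearts 1 and 3 were again the highest, and S1Pless hearts 1 and 2 exceeded the other control hearts (log2 fold change -0.19 ± 0.15, adjusted p = 0.522). Mybpc3, myosin-binding protein C, which tunes the binding of myosin to actin, averaged 3291 ± 688 CPM in S1Pless hearts and 3583 ± 498 CPM in control hearts (SD, n = 5 each; adjusted p = 0.685).

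Among the 7 thin filament genes the median log2 fold change was -0.11. Tmod1, tropomodulin, which caps the pointed end of the actin filament, had the smallest p of the compartment. Its level was 239, 293, 330.3, 334 and 302 CPM in the S1Pless hearts, against 316, 378, 338, 354 and 396 CPM in the control hearts. S1Pless heart 1 was the lowest of the 10, and S1Pless hearts 3 and 4 lay above control heart 1, so the groups overlapped. The log2 fold change was -0.25 ± 0.11 (unadjusted p = 0.0402, adjusted p = 0.227 by edgeR). Of the annotated exon bases of Tmod1, 32.6% overlap Tstd2 on the opposite strand, and the strand setting of the counting is not stated, so reads of the 2 genes may be mixed.

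Actc1, cardiac alpha-actin, had 7058, 8246, 5237, 6595 and 6070.1 CPM in the S1Pless hearts, against 8124, 7191, 8272, 6081 and 8072 CPM in the control hearts. S1Pless heart 2 lay among the highest control hearts, and control heart 4 lay with the lower S1Pless hearts (log2 fold change -0.18 ± 0.13, adjusted p = 0.478). Actin genes are close in sequence, and how the counting treated reads shared between them is not known from the sources. None of the 3 troponin subunits passed the test. Tnnt2, troponin T, which anchors the complex to tropomyosin, averaged 8346 ± 1156 CPM in S1Pless hearts and 8694 ± 1543 CPM in control hearts. Tnni3, the inhibitory subunit, averaged 3401 ± 628 CPM in S1Pless hearts and 3971 ± 1134 CPM in control hearts. Tnnc1, the calcium-binding subunit, averaged 1912 ± 273 CPM in S1Pless hearts and 2049 ± 520 CPM in control hearts, with adjusted p-values of 0.853 for Tnnt2, 0.538 for Tnni3 and 0.778 for Tnnc1. The 95% interval of the log2 fold change of Tnni3, -0.62 to 0.18, was wide. Tpm1, the tropomyosin that lies along actin, had the estimate nearest to 0 of all members, -0.05 ± 0.13, with 7291 ± 758 CPM in S1Pless hearts and 7551 ± 1391 CPM in control hearts. Lmod2, leiomodin, which lengthens thin filaments, averaged 543 ± 77.2 CPM in S1Pless hearts and 585 ± 68.6 CPM in control hearts (adjusted p = 0.663).

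The 4 genes of titin and the M-band had a median log2 fold change of -0.13. Smyd1, a muscle lysine methyltransferase that takes part in myosin folding and sarcomere assembly, had 399, 495, 522, 503 and 459 CPM in the S1Pless hearts, against 504, 544, 548, 523 and 683 CPM in the control hearts. Control heart 5 stood above all others, and only S1Pless heart 3 exceeded any control heart, control heart 1. The log2 fold change was -0.24 ± 0.11 (unadjusted p = 0.0539, adjusted p = 0.26 by edgeR). Ttn, titin, the elastic filament, had 3193, 4320.4, 3801, 5010.1 and 4657 CPM in the S1Pless hearts, against 3870.1, 4226, 3871, 5505 and 5764 CPM in the control hearts. S1Pless heart 1 was the lowest and control hearts 4 and 5 the highest, with the other 7 interleaved (log2 fold change -0.15 ± 0.15, adjusted p = 0.634). The myomesins Myom1 and Myom2 crosslink thick filaments at the M-band. Myom1 averaged 1491 ± 217 CPM in S1Pless hearts and 1607 ± 128 CPM in control hearts (adjusted p = 0.65). Myom2 averaged 1022 ± 404 CPM in S1Pless hearts and 1072 ± 224 CPM in control hearts (adjusted p = 0.912), and S1Pless heart 5, at 478 CPM, was the lowest.

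The 13 Z-disc genes had a median log2 fold change of -0.19 and held both extremes of the list, Fhl2 and Myot. Synpo2l, an actin-binding protein of the Z-disc, had the smallest p of all members. It had 105, 109.6, 81.5, 107 and 100.02 CPM in the S1Pless hearts, against 102, 148, 123, 125 and 111 CPM in the control hearts. S1Pless heart 3 was the lowest, and control heart 1 lay within the S1Pless range while the other 4 control hearts lay above it. The log2 fold change was -0.28 ± 0.11 (unadjusted p = 0.0274, adjusted p = 0.191 by edgeR). Fhl2, a LIM-domain protein that binds titin and signalling proteins, had 1705, 1547, 1461, 1185 and 1116 CPM in the S1Pless hearts, against 1774, 1733, 1859, 1306 and 1876 CPM in the control hearts. Control heart 4 was the exception among controls and lay below 3 of the S1Pless hearts, whereas the other 4 control hearts were above every S1Pless heart. The log2 fold change was -0.29 ± 0.14 (unadjusted p = 0.0613, adjusted p = 0.277 by edgeR).

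The other Z-disc members had adjusted p-values of 0.312 or more. Nebl, nebulette, which links actin to the Z-disc, averaged 234 ± 27.6 CPM in S1Pless hearts and 283 ± 62.3 CPM in control hearts, with a log2 fold change of -0.27 ± 0.14. Actn2, alpha-actinin, the crosslinker of actin at the Z-disc, averaged 1684 ± 175 CPM in S1Pless hearts and 1851 ± 131 CPM in control hearts. Ldb3, which binds alpha-actinin, averaged 1013 ± 104 CPM in S1Pless hearts and 1159 ± 110.1 CPM in control hearts. The estimates of 4 further members were of similar size or smaller: Myoz2 (a calsarcin that binds calcineurin, -0.19 ± 0.11), Csrp3 (muscle LIM protein, -0.20 ± 0.14), Pdlim5 (a PDZ and LIM protein, -0.16 ± 0.14) and Nexn (nexilin, an actin-binding protein, -0.09 ± 0.10). Tcap, telethonin, which joins the ends of titin molecules, ranged between 682 and 1561 CPM in S1Pless hearts and between 865 and 1671 CPM in control hearts. Flnc, filamin C, an actin crosslinker, ranged between 210.2 and 387 CPM in S1Pless hearts and between 205 and 549 CPM in control hearts. Mypn, myopalladin, which connects nebulette to alpha-actinin, averaged 114 ± 25.6 CPM in S1Pless hearts and 136 ± 42.4 CPM in control hearts. In these last 3 genes the spread within either group exceeded the difference between groups. Myot, myotilin, a partner of filamin C and alpha-actinin, was the exception in sign. It averaged 84.5 ± 14.7 CPM in S1Pless hearts and 74.4 ± 21.3 CPM in control hearts (log2 fold change 0.18 ± 0.17, adjusted p = 0.589), and the highest single value, 110.1 CPM, belonged to control heart 2.

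The 5 genes of the costamere, the intercalated disc and the desmin network had a median log2 fold change of -0.14. Dmd, dystrophin, which links actin to the membrane complex, had 100.5, 146, 101, 136 and 128 CPM in the S1Pless hearts, against 131, 114, 128, 147 and 199.8 CPM in the control hearts. Control heart 5 stood above the other 9 hearts, whose values interleaved (log2 fold change -0.24 ± 0.15, adjusted p = 0.425). Cavin4, a coat protein of muscle caveolae listed under its older symbol Murc, had 72.4, 109, 102, 101 and 82.3 CPM in the S1Pless hearts, against 81.8, 125, 107, 97.9 and 120.4 CPM in the control hearts. The lowest values were those of S1Pless hearts 1 and 5 and control heart 1 (log2 fold change -0.19 ± 0.14, adjusted p = 0.478). Des, desmin, the intermediate filament around the Z-disc, averaged 1801 ± 223 CPM in S1Pless hearts and 1978 ± 193 CPM in control hearts. Nrap, a nebulin-related protein of the intercalated disc, averaged 657 ± 127 CPM in S1Pless hearts and 703 ± 162 CPM in control hearts. Vcl, vinculin, an adhesion protein of costameres, averaged 140.02 ± 18.2 CPM in S1Pless hearts and 154 ± 21.3 CPM in control hearts. Vcl shares 25.5% of its exon bases with Ap3m1 on the opposite strand, which leaves its counts uncertain in the same way as those of Tmod1.

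**Figure D2:**
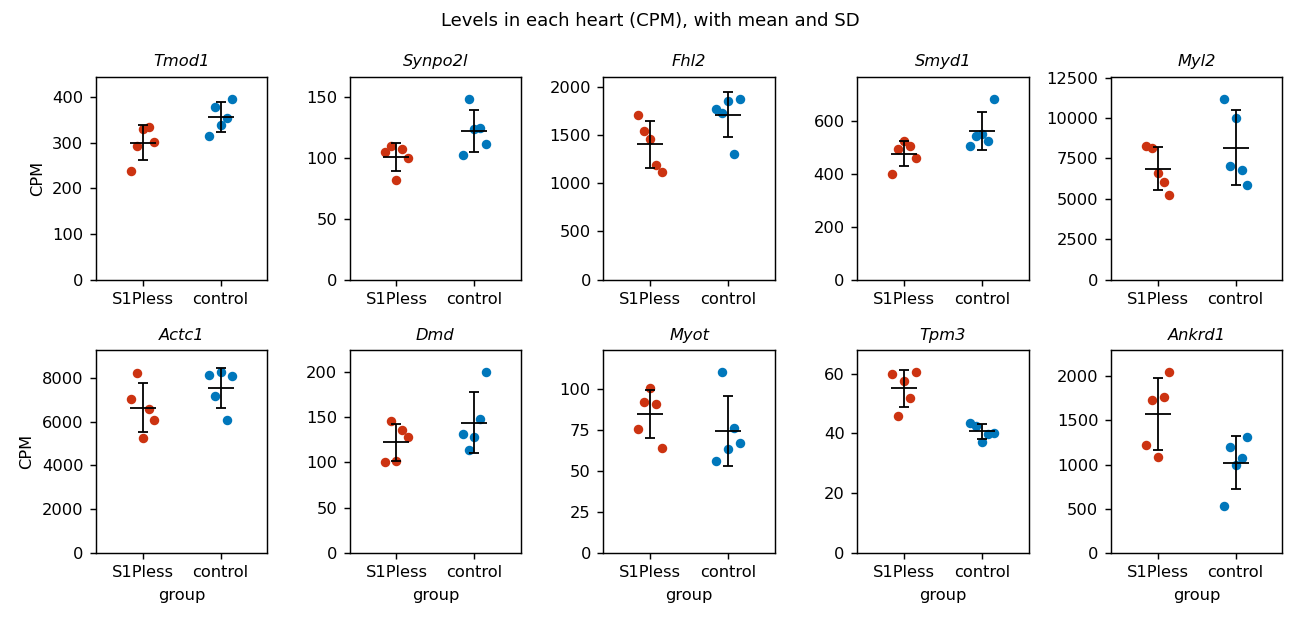
Normalized CPM (vertical axis, starting at 0) in each heart for 8 members and for Tpm3 and Ankrd1, with S1Pless hearts (red) left of control hearts (blue) and the mean and SD of 5 hearts in black. The groups overlap in the 8 members, while the 5 S1Pless values of Tpm3 lie above the 5 control values.

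Divided by mRNA length, the members covered a wide range of abundance. Myl2 led with 7720 ± 1484 CPM per kilobase in S1Pless hearts and 9193 ± 2590 in control hearts, followed by Tnnt2 with 6955 ± 963 in S1Pless hearts and 7245 ± 1286 in control hearts. Actc1 came next, with 4509 ± 763 CPM per kilobase in S1Pless hearts and 5124 ± 627 in control hearts. Myl3 had 4304 ± 662 CPM per kilobase in S1Pless hearts and 4895 ± 986 in control hearts, so its mean lay within 1 SD of that of Actc1, and the mean of Tnnt2 lay within 1 SD of Myl2 around the mean of Myl2 in both groups. Ttn, whose mRNA is by far the longest, had 41.8 CPM per kilobase in S1Pless hearts and 46.3 in control hearts, and Dmd was the least abundant member, at 8.20 in S1Pless hearts and 9.66 in control hearts.

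The median spread between hearts of the same group was larger in the members than in all genes tested, though not in every member. The comparison was not matched for expression level. The median coefficient of variation within groups was 16.3% over the members and 13.9% over all genes tested. It was highest in Tcap (33.7%), Myom2 (31.2%), Flnc (31.0%) and Mypn (28.0%), and lowest in Nexn (8.19%) and Actn2 (8.74%). S1Pless hearts 1 and 5 each held the lowest value in 13 members. The lowest heart was an S1Pless heart in 29 of 32 members, and the highest was a control heart in 30 of 32. These counts rest on TMM factors, and the direction changed with other scalings, described further on. The matching shares over all genes were not computed, and genes that share a library are not independent. The median deviation of the members from their means, on the log2 scale, was -0.22, 0.11, -0.04, -0.00 and -0.20 in the S1Pless hearts, against -0.02, 0.13, 0.14, 0.02 and 0.08 in the control hearts. S1Pless hearts 1 and 5 had the lowest medians over the list, but in different genes. S1Pless heart 1 was low in titin and M-band genes (-0.41) and costamere genes (-0.39), and above 0 in thick (0.15) and thin (0.06) filament genes. S1Pless heart 5 was lowest in thick filament genes (-0.34).

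Much of the difference between hearts was ordered by the length of the mRNA, and the same order ran through both groups. The members were divided at their median mRNA length, 3021 bases. In the 16 shorter members the median log2 deviation was 0.04, 0.15, -0.02, -0.15 and -0.28 in the S1Pless hearts, against 0.25, -0.03, 0.24, -0.13 and -0.12 in the control hearts. In the 16 longer members it was -0.37, -0.00, -0.04, 0.08 and -0.07 in the S1Pless hearts, against -0.10, 0.24, -0.03, 0.17 and 0.32 in the control hearts. Short transcripts, such as those of the myosin light chains, the troponins and Tcap, were relatively high in S1Pless hearts 1 and 2 and control hearts 1 and 3. Long ones, such as those of Flnc and Mypn, were relatively high in control hearts 2, 4 and 5 and S1Pless heart 4.

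Across the 32 members, Spearman's rho between deviation and mRNA length was -0.81, -0.52, -0.09, 0.75 and 0.74 in the S1Pless hearts, against -0.71, 0.43, -0.78, 0.70 and 0.70 in the control hearts. These are correlations across genes that share a library, and genes are not independent replicates. Over the 12944 tested genes with a length that are not members, rho was -0.28, -0.17, 0.07, 0.36 and 0.28 in the S1Pless hearts, against -0.30, 0.11, -0.47, 0.24 and 0.32 in the control hearts. The sign was the same in members and other genes in 9 of 10 hearts, S1Pless heart 3 being the exception. The slope over the other genes averaged 0.00852 ± 0.0675 log2 units per doubling of length in S1Pless hearts and -0.00852 ± 0.0957 in control hearts (two-sided exact permutation p = 0.770). The 4 hearts with a negative slope had mitochondrial shares of 27.1% and 27.0% (S1Pless hearts 1 and 2) and 33.4% and 27.1% (control hearts 1 and 3), and the other 6 hearts had between 22.7% and 25.3%. S1Pless hearts 4 and 5 and control heart 5, whose numbers in the sample titles begin with 44, had the highest slopes. These were 0.0764, 0.0679 and 0.0883. All hearts with a negative slope have numbers that begin with 38. What the numbers stand for is not given. The parts of RNA quality and of the number series in this order were not tested.

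**Figure D3:**
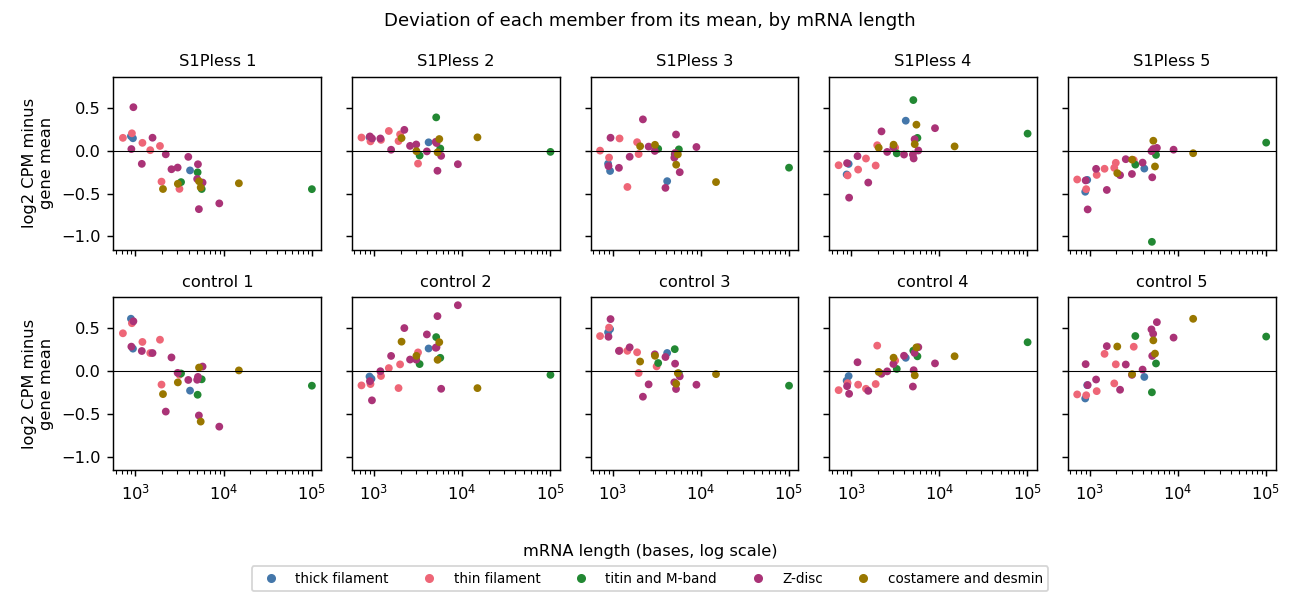
Deviation of each of the 32 members from its mean over the 10 hearts (log2 CPM, vertical axis) against its mRNA length in bases (horizontal log axis), with 1 panel per heart, S1Pless in the upper row and control in the lower. The points fall with length in S1Pless hearts 1 and 2 and control hearts 1 and 3, and climb in S1Pless hearts 4 and 5 and control hearts 2, 4 and 5.

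**Figure D4:**
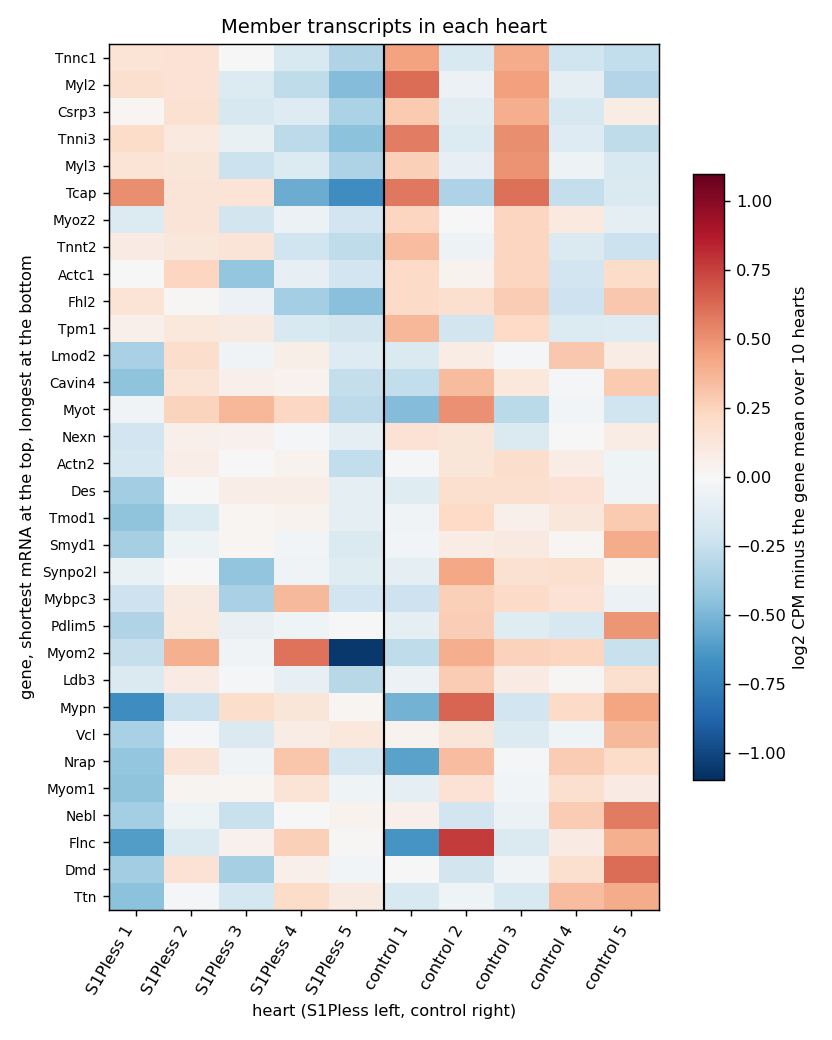
Log2 CPM of each member minus its mean over the 10 hearts (colour, red above and blue below), with hearts in columns, S1Pless left of control, and genes in rows by mRNA length, shortest at the top. Control hearts 1 and 3 are red at the top, control heart 5 is red towards the bottom, and S1Pless heart 1 is blue over most of the longer genes.

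Ratios of counts within a library were chosen after the values were seen and are given with no test. Those of Myl2 and Tcap to Ttn showed the same pattern. The ratio of Myl2 to Ttn counts was 2.58, 1.89, 1.74, 1.21 and 1.13 in the S1Pless hearts, against 2.89, 1.66, 2.59, 1.23 and 1.02 in the control hearts, so that the highest heart exceeded the lowest 2.84-fold. Tcap over Ttn spanned 3.34-fold. Among pairs of thin filament genes the span differed. Tnnt2 over Tpm1 spanned 1.17-fold, with 1.14 ± 0.0435 in S1Pless hearts and 1.15 ± 0.0693 in control hearts. Skeletal actin over cardiac actin, Acta1 over Actc1, spanned 7.945-fold, the widest of the ratios computed, with 0.0425 ± 0.0197 in S1Pless hearts and 0.0336 ± 0.0233 in control hearts. The ratio of Tnni3 to Tnnc1, which encode subunits of 1 troponin complex, was 1.77 ± 0.0882 in S1Pless hearts and 1.93 ± 0.0735 in control hearts. Myom2 over Myom1 was 0.682 ± 0.225 in S1Pless hearts and 0.666 ± 0.120 in control hearts, and S1Pless heart 5 stood apart at 0.321.

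When the slope of each heart was added to the model, an alternative chosen after seeing the data, the standard error fell in 30 of 32 members and its median was 0.10 in place of 0.14. Tnni3 had an SE of 0.08 in place of 0.19. In that fit 1 member was called, Tmod1, with a log2 fold change of -0.28 ± 0.08 (adjusted p = 0.047 by edgeR), where 2.29% of all genes were called lower in S1Pless hearts. The adjusted p was 0.0892 for Smyd1, 0.105 for Synpo2l and 0.128 for Fhl2, and the median over the members was -0.16.

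The sign of the members' differences depended on what the libraries were scaled to. With the library totals in place of TMM factors, the median of all genes was 0.12, a shift of 0.136, and 22 members were below 0 and 10 above, with a median of -0.04. Scaled to the summed counts of 12 cardiomyocyte genes that encode no sarcomere protein, 0 members were below 0 and 32 above, with a median of 0.11 beside 0.27 for all genes. All 12 of these genes were below 0 with TMM factors, so this scaling raises every gene by construction and is no separate check of the sign. Mb, Atp2a2 and Pln are the largest parts of the sum. In that scaling Myot was called higher (log2 fold change 0.46, adjusted p = 0.0478 by edgeR), where 32.9% of all genes were. A scaling shifts all genes by nearly the same amount, so the difference between the members' median and that of all genes, -0.16 with TMM factors, is nearly fixed under any of them and is not supported by them. The members' share of all counts was 6.42 ± 0.437% in S1Pless hearts and 6.47 ± 0.426% in control hearts, and that of the 12 cardiomyocyte genes was 3.54 ± 0.187% in S1Pless hearts and 3.91 ± 0.335% in control hearts.

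**Figure D5:**
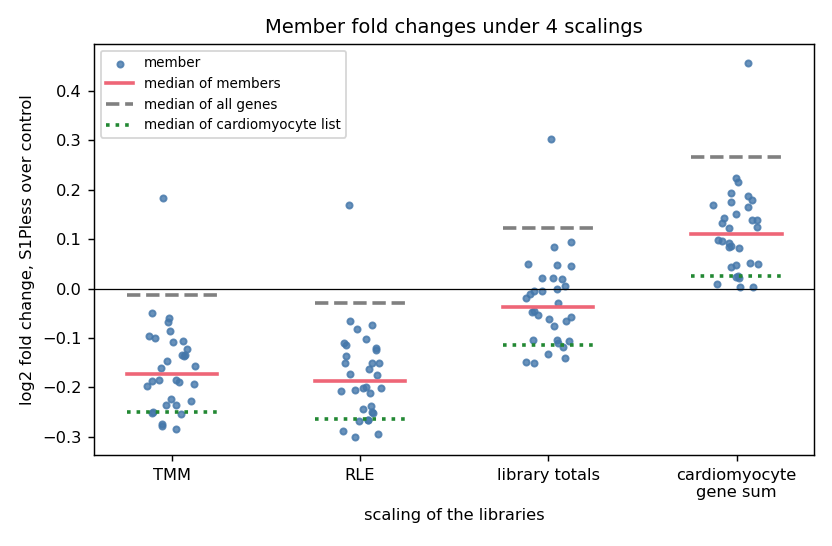
Log2 fold change of each of the 32 members, S1Pless over control (vertical axis), under 4 scalings of the libraries (horizontal axis), with the medians of the members, of all genes and of the 12 cardiomyocyte genes as lines. The members' median is -0.17 with TMM, -0.19 with RLE, -0.04 with library totals and 0.11 with the cardiomyocyte gene sum, and lies between the other 2 medians each time.

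Cardiomyocyte genes outside the sarcomere and markers of other cells are given beside the members. All 12 cardiomyocyte genes were below 0 with TMM factors, with a median of -0.25 and 0 calls by edgeR (4 at an unadjusted p below 0.05). In Pln, phospholamban, the regulator of the calcium pump, and Trdn, triadin of the calcium release complex, both chosen after their values were seen, every S1Pless heart lay below every control heart. Pln had 4951, 5447, 5059.8, 5293 and 4923 CPM in the S1Pless hearts, against 6259, 6021, 6395, 6051 and 6950 CPM in the control hearts (adjusted p = 0.089 by edgeR and 0.000173 by DESeq2). All 8 macrophage markers were above 0, 5 of them called higher, with a median of 0.90. Their summed level ran between 212 and 469.9 CPM in S1Pless hearts, the highest in S1Pless heart 5, and between 130.3 and 171 CPM in control hearts. The 7 fibroblast markers had 1 higher call and a median of 0.19, with summed levels of 1001 to 1318 CPM in S1Pless hearts and 784 to 1053 CPM in control hearts. The 6 endothelial markers had 1 higher call and a median of 0.22, with summed levels of 999.6 to 1195 CPM in S1Pless hearts and 935 to 1059 CPM in control hearts; Kdr, the VEGF receptor, was the 1 endothelial marker below 0 (-0.23, adjusted p = 0.275). All 5 smooth muscle markers were below 0 with TMM factors (4 with library totals and 1 when scaled to cardiomyocyte genes), with 0 calls by edgeR (1 lower at an unadjusted p below 0.05) and a median of -0.25. Their summed levels were 462 to 590.1 CPM in S1Pless hearts and 485 to 728 CPM in control hearts. The 6 pericyte markers had 0 calls (1 higher at an unadjusted p below 0.05) and a median of 0.06. The part of the cell makeup of the tissue in the members' values was not tested.

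Among 25 tested genes of other filament and Z-disc proteins, 1 was called higher and 0 lower, with a median of -0.11; at an unadjusted p below 0.05, 2 were higher and 2 lower. The called gene was Tpm3, a tropomyosin found in slow skeletal muscle and, as other isoforms, in many non-muscle cells. It had 59.8, 45.9, 57.6, 52.0 and 60.6 CPM in the S1Pless hearts, against 43.7, 42.5, 37.3, 39.9 and 40.2 CPM in the control hearts. Every S1Pless heart exceeded every control heart, and the log2 fold change was 0.44 ± 0.09 (adjusted p = 0.0208 by edgeR). The call was lost without S1Pless heart 5 (adjusted p = 0.0565), control heart 3 (0.0601) or control heart 4 (0.0612), and within the 7 hearts whose title numbers begin with 38 the adjusted p was 0.168. The 3 hearts with numbers beginning with 44 include 1 control heart, and only 1 gene of 13374 was called there, so that they give no check of the call. Over the other alternatives the adjusted p ran between 0.000712 and 0.0483. Tropomyosin genes are close in sequence, and the relation of Tpm3 to the macrophage, fibroblast and endothelial markers was not tested. Ankrd1, a stress-responsive ankyrin repeat protein that binds titin, had 1572 ± 405 CPM in S1Pless hearts and 1021 ± 302 CPM in control hearts (log2 fold change 0.62 ± 0.23, adjusted p = 0.151). In the other direction, Fhod3, a formin of the cardiac sarcomere, had 285 ± 53.4 CPM in S1Pless hearts and 369.8 ± 46.0 CPM in control hearts (log2 fold change -0.37 ± 0.14, adjusted p = 0.151). Palld, palladin, an actin-binding relative of myopalladin, had 179.7 ± 32.8 CPM in S1Pless hearts and 227 ± 38.8 CPM in control hearts (log2 fold change -0.34 ± 0.15, adjusted p = 0.220). The myosin heavy chains and skeletal actin, also outside the list of members, did not pass the test: Myh6, the main adult heavy chain of the mouse ventricle, averaged 17399 ± 2652 CPM in S1Pless hearts and 19530.1 ± 1781 CPM in control hearts (adjusted p = 0.487). Myh7, the heavy chain of the fetal ventricle, was also uncalled (adjusted p = 0.682; log2 fold change 0.38). Ankrd1, Fhod3, Palld, Myh6 and Myh7 were picked after their values were seen.

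Of 29 genes of the dystrophin complex and the costamere, 0 were called by edgeR, 2 were higher and 6 lower at an unadjusted p below 0.05, and the median was -0.03. Sntb2, a syntrophin that binds dystrophin, had 32.9, 38.1, 29.5, 38.3 and 42.1 CPM in the S1Pless hearts, against 28.7, 25.6, 21.7, 31.4 and 31.6 CPM in the control hearts. S1Pless heart 3 lay within the control range and the other 4 S1Pless hearts above it (log2 fold change 0.38 ± 0.12, adjusted p = 0.098). By DESeq2, Sgcb (beta-sarcoglycan) and Itga7 (a chain of the laminin-binding integrin of muscle), both named after their values were seen, were lower, with an adjusted p of 0.0206 for Sgcb and 0.0366 for Itga7.

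All 18 tested genes of sarcomere assembly and turnover were below 0 with TMM factors, with a median of -0.20 and 0 calls by edgeR (4 lower at an unadjusted p below 0.05). Klhl40, a kelch protein that stabilises thin filament proteins, had 14.4, 14.9, 13.9, 13.6 and 11.2 CPM in the S1Pless hearts, against 12.9, 18.9, 20.2, 16.1 and 20.1 CPM in the control hearts. Control heart 1 lay within the S1Pless range and the other 4 control hearts above it (log2 fold change -0.38 ± 0.13, adjusted p = 0.117). Mylk4, a kinase of the myosin light chain kinase family, had 124, 129.6, 131, 175 and 155 CPM in the S1Pless hearts, against 151, 179, 159.9, 239 and 259.7 CPM in the control hearts. Control hearts 2, 4 and 5 stood above all S1Pless hearts, and control hearts 1 and 3 lay within the S1Pless range (log2 fold change -0.47 ± 0.16, adjusted p = 0.119 by edgeR and 0.0397 by DESeq2).

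Of 16 transcription regulators of muscle genes, 0 were called by edgeR and 1 was below an unadjusted p of 0.05; 14 were below 0, with a median of -0.14. Gata4, a zinc finger factor of the heart, had 89.0, 108, 93.0, 114 and 98.6 CPM in the S1Pless hearts, against 89.9, 134, 118, 126 and 131 CPM in the control hearts. Control heart 1 lay among the S1Pless hearts and the other 4 control hearts above them (adjusted p = 0.243). Esrra, a nuclear receptor that drives energy metabolism, had 147, 138, 149.5, 143 and 133 CPM in the S1Pless hearts, against 142, 170.4, 167, 164 and 154 CPM in the control hearts. Here too only control heart 1 fell within the S1Pless range (log2 fold change -0.17 ± 0.08, adjusted p = 0.298).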

How the data were processed

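RNA of 10 male mouse hearts was measured, 5 S1Pless and 5 control. Per the labels' protocols, RNA was isolated with TRIzol and RNeasy kits and libraries were made with a stranded mRNA kit. The authors deposited 1 table of raw counts per gene. Per the submitters' processing notes, reads were aligned with STAR 2.7.8a to GRCm39 and counted with featureCounts 2.0.1. For the annotation release, strand setting and treatment of multimapping reads, the entry is: not given in the sources used here.

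Gene symbols, mRNA lengths and exon overlaps were taken from GENCODE M21, which is on an earlier build. The overlaps may therefore differ in the annotation used for the counting. Murc was found under its current symbol Cavin4. Of the 15341 genes, 12992 passed edgeR's filterByExpr (minimum count 10) and were fitted with edgeR 4.0.16 (R 4.3.3), using TMM factors and the robust quasi-likelihood test, two-sided, with Benjamini-Hochberg adjustment over all genes tested and a threshold of 0.05. CPM use TMM-scaled library sizes, and log2 CPM a prior count of 2. DESeq2 1.42.0, limma-voom 3.58.1, RLE factors, library totals, a scaling to cardiomyocyte genes, 2 other filters, the number series in the sample titles as a covariate and leaving out each heart were alternatives; the length gradient was added after seeing the data. The procedure was tested on simulated data. Single library values were compared by two-sided exact permutation over 252 arrangements, which cannot give a p below 0.00794. No 2 libraries of a group agreed within sampling noise.

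The members, compartments and lists were chosen with earlier results of these data known. Every member is named; values of every heart are given for called genes and, in each compartment or list, for the 2 smallest p-values, except 1 gene that is not reported here. Replicate numbers follow the order of deposit and pair no animals. The labels do not say whether the animals share litters or were processed together.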

Additional observations from a re-analysis of the deposited data

Results flagged for a closer look

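Among 64 sets of 5 hearts (32 members in each group), 2 held a heart far from the other 4 of its group, and about 1 in 20 sets would do so by chance. In Smyd1, control heart 5 had 683 CPM and the other control hearts between 504 and 548 CPM; the gap made up 0.751 of the group's range. In Fhl2, control heart 4 had 1306 CPM and the other control hearts between 1733 and 1876 CPM; the gap made up 0.749 of the range.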

How the results depend on the processing

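Leaving out any 1 of the 10 hearts gave 0 called members each time, in either direction, and a median between -0.22 and -0.13. Over the same fits the genes called in all numbered 118 to 504 higher and 8 to 85 lower, against 442 and 41 with all hearts, and the other pathway genes 0 to 1 higher and 0 to 2 lower. Higher calls numbered 269 without S1Pless heart 1, 221 without S1Pless heart 5, and 261, 118, 122 and 223 without control hearts 2, 3, 4 and 5. Lower calls numbered 85 without control heart 1, and 8 to 19 without any 1 of S1Pless hearts 1, 4 and 5 and control hearts 2 to 5. With library totals 1420 genes were called higher and 13 lower, 4 pathway genes were higher and the members' median was -0.037. Scaled to cardiomyocyte genes, 4277 genes were higher and 5 lower, 16 pathway genes were higher, 1 member (Myot) was higher and the median was 0.11. DESeq2 called 764 genes higher and 264 lower, and 4 pathway genes lower. With the length gradient 719 genes were higher and 297 lower, 2 pathway genes higher and 6 lower, and 1 member (Tmod1) lower. The title number series as a covariate gave 1 pathway gene lower. Apart from the construction of each scaling, the cause was not tested. Within the number series that begins with 38 (3 S1Pless and 4 control hearts), 28 members were below 0 with a median of -0.14. Within that beginning with 44, which holds 1 control heart assumed to vary like the others, 27 were below 0 with a median of -0.13. The ranges that follow leave out the fits within a number series. Over the other alternatives the adjusted p ran between 0.047 and 0.832 for Tmod1 and between 0.0884 and 0.984 for Synpo2l. It ran between 0.128 and 0.990 for Fhl2 and between 0.0478 and 0.804 for Myot. No paired analysis was possible because the labels give no replicate numbers and pair no animals. The lowest mean of a member was 74.4 CPM, where 1 count is at most 0.0658 CPM.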
